A study of Mus musculus with 20 samples.

Results

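The comparison described here is that of islet RNA from female mice lacking Cpeb1 in the whole body with islet RNA from their wild-type controls. Its members are the 6 libraries whose labels give the whole-body line and the female sex, out of 20 libraries in the series. The 3 knockout females had the genotype Cpeb1 KO/KO and were 188, 165 and 98 days old. The 3 controls were Cpeb1 +/+, aged 188, 188 and 109 days. All 6 mice were adult C57BL/6J animals of batch 1, and their labels list no Cre allele. The knockout libraries are labelled as biological replicates and the control libraries as replicates, each under its own library name. Where the labels do not state that libraries are separate animals, the p-values measure only the spread between these libraries. The knockout affects every cell of the mouse, so it is not a model of loss in beta cells alone, and the part of the gene that was removed is not given in the sources used here. The other libraries of the series came from 6 males of the same line and from 8 mice of both sexes with Ins1-Cre, a recombinase active in beta cells, on floxed or wild-type Cpeb1 alleles. The title and design of the series pose the question whether islets depend on Cpeb1 for beta cell identity and function.

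CPEB1 is an RNA-binding protein that recognises a short U-rich motif, the cytoplasmic polyadenylation element, near the 3′ end of an mRNA. Bound there, it holds the poly(A) tail short and the message untranslated, or, once phosphorylated, recruits factors that lengthen the tail and start translation. It is best known from oocytes and synapses, and poly(A)-selected RNA sequencing reads the amount of an mRNA, not its translation. Islets are clusters of endocrine cells, chiefly beta cells that make insulin and alpha cells that make glucagon, and isolated islets carry along some exocrine, vascular and immune cells of the pancreas.

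The libraries held 41756830 to 97105346 counts. Control 1 stood apart. In it 60.5% of all counts fell on the ribosomal RNA gene Rn18s and 10.3% on Lars2, which encodes a mitochondrial tRNA synthetase, which left 12157634 counts, against 90937600 to 95655847 in the other 5 libraries. Both genes were removed before scaling. Of the remaining counts of control 1, mitochondrial genes made up 6.31%, against 1.85% to 2.56% in the others. On the first principal component of log CPM, which held 53.2% of the variance, controls 1 and 2 lay at 99.3 and 62.0 and control 3 at -53.8, among the knockouts at -61.8 to -16.8. On this component the controls spread more widely than the knockouts.

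No autosomal gene passed the test. Levels are given as CPM, counts scaled to a common library size (TMM), and differences as log2 fold changes (knockout minus control) with their standard error (SE). With edgeR's quasi-likelihood test, 0 of 17052 autosomal genes reached a Benjamini-Hochberg adjusted p under 0.05 (0.0%), and the smallest adjusted p was 0.701. At an unadjusted p under 0.05 there were 931 genes (5.46%), of which 382 were higher in knockouts (2.24%) and 549 lower (3.22%). This share depended on the libraries used. It was 4.38% without control 1, 4.09% without control 2 and 20.7% without control 3, and 3.06%, 1.78% and 3.49% without knockouts 1, 2 and 3. Counts of list members without control 3 are to be read against that 20.7%. The 3 knockouts lay entirely above or below the 3 controls in 2283 genes (13.4%), above in 1123 (6.59%) and below in 1160 (6.8%). On the same counts limma-voom called 0 genes (864 at an unadjusted p under 0.05), while DESeq2 called 47 genes (1455 at an unadjusted p under 0.05), 19 higher and 28 lower. The median log2 difference over all genes tested was 0.02. TMM scaling places most genes near 0, so this value does not show that the single libraries were alike. Because edgeR called 0 genes, the values below describe only where the libraries differed. Every gene with an unadjusted p under 0.05 in this edgeR fit had an adjusted p of 0.701. The leading genes are those with the smallest p or the largest change in each direction, with a mean of at least 1 CPM and groups that do not overlap.

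Cpeb1, the targeted gene (chr7:81347026-81455465, minus strand, mm10), stood at 43.8, 32.9 and 31.9 CPM in knockouts 1 to 3 and at 81.1, 74.6 and 49.5 CPM in controls 1 to 3. Every knockout was below every control, and the knockout mean of 36.2 ± 6.62 CPM (SD, n = 3) was 52.9% of the control mean of 68.4 ± 16.7 CPM (SD, n = 3). The log2 difference was -0.92 (SE 0.225, unadjusted p = 0.00543). The labels and the level of the gene therefore point the same way, and the counts per gene still held Cpeb1 reads in all 3 knockouts. Without control 1 the log2 difference was -0.78. In whole-body males it was -0.93 and in females of the Ins1-Cre line -1.02. Cpeb1os1, a transcript on the opposite strand just upstream of Cpeb1 that was singled out after its values were seen, lay between 4.24 and 4.50 CPM in all 6 libraries.

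The other CPEB proteins bind related motifs. Cpeb2 stood at 13.3, 11.4 and 7.67 CPM in knockouts and 18.0, 12.6 and 7.49 CPM in controls, Cpeb3 at 17.0, 16.6 and 13.5 against 44.7, 23.6 and 14.2 CPM. Cpeb4 was at 44.7, 42.3 and 33.0 CPM in knockouts and 87.3, 43.4 and 28.3 CPM in controls. In each of the 3 paralogs control 1 was the highest library and the groups overlapped. The log2 differences were -0.22 (SE 0.353) for Cpeb2, -0.80 (SE 0.397) for Cpeb3 and -0.40 (SE 0.398) for Cpeb4, and without control 1 they were 0.10, -0.27 and 0.15.

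Of the 25 genes listed for cytoplasmic polyadenylation, 24 were tested, and 0 were higher and 2 lower at an unadjusted p under 0.05. These were Cpeb1 and Cpsf1, the largest subunit of the factor that reads the AAUAAA hexamer. Cpsf1 was at 32.8, 35.2 and 37.0 CPM in knockouts and 43.9, 43.5 and 44.2 CPM in controls, without overlap (log2 -0.32, SE 0.102, unadjusted p = 0.0168). Sympk, the scaffold of the same complex, was at 94.5, 89.0 and 98.4 against 116, 111.6 and 105 CPM (log2 -0.24, unadjusted p = 0.0509). The poly(A) polymerase gene Tent2, whose product is also called GLD2, was at 13.3, 15.5 and 13.7 against 12.9, 11.7 and 13.1 CPM. Parn, the deadenylase that opposes it, was at 37.5, 37.1 and 40.6 against 42.9, 43.5 and 42.2 CPM. The list's median log2 difference was -0.10, and without control 3 it was -0.18 with 5 lower at an unadjusted p under 0.05. Among 16 mRNAs reported as CPEB1 targets in other tissues, 12 were tested, 0 of them had an unadjusted p under 0.05, and their median was 0.02, as was that of all genes. Both values depended on single libraries, since without control 3 an unadjusted p under 0.05 was reached by 3 higher and 2 lower genes, and without control 1 the median was 0.15 with 10 of 12 positive.

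A search for the element itself was added after the differences had been seen. The letters TTTTAT or TTTTAAT were sought on the transcript's strand in the last 200 bases of the longest annotated 3′ UTR of each gene (GENCODE M21, GRCm38, the assembly of mm10). Of 13217 tested genes with a 3′ UTR at least that long, 3823 (28.9%) held 1 or more. Their median log2 difference was 0.02, against 0.01 in the genes without one, and 5.34% of them against 6.04% of the others had an unadjusted p under 0.05. The element was found in 23.1% of the 458 genes that were lower and in 31.3% of the 313 that were higher at an unadjusted p under 0.05. Of Cpeb1 and the leading genes described below, 26 had a long enough 3′ UTR and 3 held the element (11.5%). The sites of those 3 genes are shown first, and below them those of the serotonin-synthesis gene Tph2, whose groups did not overlap, and of the beta cell hormone gene Iapp, whose groups did. Each is 30 bases of the transcript's strand, 5′ to 3′, with the element in capitals. A match of letters is not a site of binding.

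Fmo1 (chr1:162840230-162840259, minus strand): ggtccccagaaaTTTTATtgaataaaatca
Htr3a (chr9:48899306-48899335, minus strand): cttctgcacttaTTTTATctagcccctaat
Syt1 (chr10:108497650-108497679, minus strand): actcaataaaaatgTTTTATttcctgttga
Tph2 (chr10:115078743-115078772, minus strand): aagccactgcccTTTTATgttggacatctg
Iapp (chr6:142303932-142303961, plus strand): ttcttatttaactaaaataTTTTAATtcta

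The 5 sites did not go with 1 direction. Fmo1 and Tph2 were lower in knockouts, Htr3a and Syt1 were higher, and Iapp was at 21079, 17127 and 19314 CPM in knockouts and 14466, 19528 and 18852 CPM in controls (log2 0.12, SE 0.153). Cpeb1's own mRNA held neither form of the element in its last 200 bases, and neither did those of Cpeb3, Cpeb4, Ehhadh or Arnt2, while that of Cpeb2 held 1 site.

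Among genes close to Cpeb1 on chromosome 7, small p-values made up a larger share than among all genes. Within 5 Mb of Cpeb1, 79 genes other than Cpeb1 were tested, and 17 of them (21.5%) had an unadjusted p under 0.05, 7 higher and 10 lower, against 5.46% of all genes and 5.41% of the 1258 tested genes on the rest of the chromosome. DESeq2 called 5 of the 79, against 47 of all 17052 genes tested. Leaving out 1 library in turn gave 11 to 23 such neighbours, with 13 of 80 tested when control 1 was left out and 11 of 81 when knockout 1 or knockout 2 was. A targeted allele can keep neighbouring DNA of the strain of the stem cells in which it was made. The flanking DNA of these mice was not examined here, so an effect of CPEB1 and an effect of linked DNA cannot be told apart.

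The gene with the smallest p of the whole comparison lay 0.126 Mb from the centre of Cpeb1. It was 2900076A07Rik, a long noncoding RNA gene (chr7:81523550-81531498, plus strand). Its level was 6.53, 6.76 and 6.48 CPM in the knockouts and 2.45, 2.34 and 2.53 CPM in the controls, so that the spread within each group was small beside the gap between them. The log2 difference was 1.43 (SE 0.167, unadjusted p = 8.39e-05). When the spread was estimated over all 12 whole-body libraries, it was the 1 gene called in females (edgeR adjusted p = 0.00654). It was also higher in knockouts in the males (1.49, SE 0.131) and in females of the Ins1-Cre line (1.11, SE 0.256).

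Sh3gl3, which encodes the brain-enriched membrane-bending protein endophilin A3, lies at chr7:82173840-82307419. It was at 2.55, 2.64 and 2.24 CPM in the knockouts and at 0, 0.235 and 0.105 CPM in the controls. A level of 3 counts corresponds to 0.254 CPM in control 1 and to 0.0372 or 0.0348 CPM in controls 2 and 3, so the gene was nearly silent in controls and low in knockouts. The fitted log2 difference was 4.12 (SE 0.637, unadjusted p = 0.000447), the largest among the leading genes, with 1.96 in males and 2.98 in females of the Ins1-Cre line.

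Arnt2, a PAS-domain transcription factor gene at chr7:84246278-84410176, was lower. Knockouts 1 to 3 had 9.34, 12.3 and 16.9 CPM and controls 1 to 3 had 42.7, 40.01 and 24.9 CPM (log2 -1.48, SE 0.291, unadjusted p = 0.00174). The youngest animal of each group lay nearest to the other group. With age as a covariate the log2 difference was -1.49. In males the log2 difference was -1.10 (SE 0.325) and in females of the Ins1-Cre line -1.37 (SE 0.180). Fah, the last enzyme of tyrosine breakdown, at 3.195 Mb from Cpeb1, was at 13.7, 13.5 and 13.9 CPM against 7.78, 8.43 and 9.90 CPM (log2 0.65, SE 0.141).

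The other neighbours with small p-values differed less. Man2a2, a Golgi mannosidase that trims N-glycans, was at 44.7, 49.2 and 45.0 CPM in knockouts and 87.2, 70.8 and 59.9 CPM in controls (log2 -0.65, SE 0.156). Furin, further along in the same stretch, encodes a protease that cleaves proproteins and was at 49.3, 49.9 and 50.4 against 92.1, 68.4 and 61.5 CPM (log2 -0.57, SE 0.164). Stard5, a carrier of cholesterol, was at 25.8, 28.0 and 24.8 against 19.4, 20.3 and 19.7 CPM (log2 0.40, SE 0.108). Homer2, a scaffold protein gene of synapses, was low at 0.905, 0.825 and 0.766 against 1.86, 3.51 and 1.15 CPM (log2 -1.39, SE 0.442). Furin and Homer2 were chosen after their values were seen. Homer2 had the opposite sign in males (0.56) and in females of the Ins1-Cre line (0.95). Furin was at 0.03 in males and -0.04 in females of that line. Of the 17 neighbours, 13 had the same sign in males and 14 in females of the Ins1-Cre line, 5 and 4 of them at an unadjusted p under 0.05 there. In males 13 of 81 tested neighbours had an unadjusted p under 0.05 (16.0%, against 7.41% of all genes) and in females of the Ins1-Cre line 9 of 75 did (3.45% of all genes).

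**Figure D1:**
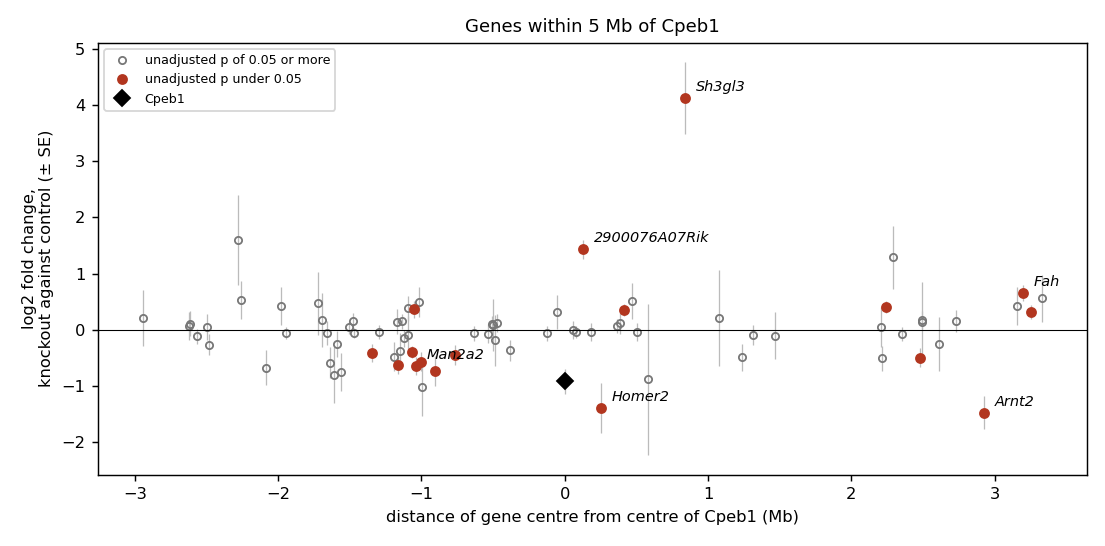
Each point is a tested autosomal gene within 5 Mb of Cpeb1, with the distance of its centre from the centre of Cpeb1 in Mb on the x axis and the log2 fold change of 3 knockout against 3 control females on the y axis; bars are ± 1 SE. Filled red points are the 17 genes at an unadjusted p under 0.05, open grey points the rest, and the black diamond is Cpeb1 at -0.92; Sh3gl3 at 4.12 and Arnt2 at -1.48 lie farthest from 0 among the filled points.

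Away from chromosome 7, the gene with the smallest p was Matn2, which encodes matrilin 2, a protein of the extracellular matrix. Knockouts 1 to 3 had 28.6, 25.9 and 25.3 CPM and controls 1 to 3 had 64.2, 64.5 and 48.4 CPM, a gap wider than the spread of either group (log2 -1.15, SE 0.149, unadjusted p = 0.000158). Ehhadh, a peroxisomal enzyme of fatty acid oxidation, was at 15.1, 13.0 and 13.1 CPM against 24.3, 34.3 and 26.9 CPM (log2 -1.06, SE 0.165, unadjusted p = 0.000475). DESeq2 called both, at adjusted p = 5.96e-08 and 2.5e-05. In males Matn2 differed by -0.23 and Ehhadh by 0.71, and in females of the Ins1-Cre line by -0.66 and 0.08.

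Igfals, Emilin1 and Lrrn2 were also among the lower genes. Igfals, the subunit that keeps insulin-like growth factors in the circulation, was at 34.1, 21.9 and 22.9 CPM in knockouts and 52.2, 52.1 and 52.7 CPM in controls (log2 -0.99, SE 0.189). Emilin1, a glycoprotein of elastic fibres, was at 69.5, 73.4 and 71.0 against 136, 110 and 100 CPM (log2 -0.69, SE 0.137). The rule that chose both genes required groups that do not overlap. The gap ran from 34.1 to 52.1 CPM for Igfals and from 73.4 to 100 CPM for Emilin1. Lrrn2, a leucine-rich repeat membrane protein gene, was at 15.1, 11.7 and 14.5 against 24.9, 21.7 and 21.2 CPM (log2 -0.71).

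The next lower genes were Mt1, Tfrc, Slc39a5 and Fmo1. Mt1, a metallothionein that binds zinc and copper, was at 93.8, 60.5 and 75.0 CPM against 157, 160 and 129 CPM (log2 -0.96, SE 0.185). Tfrc, the transferrin receptor that brings iron into cells, was at 33.8, 32.5 and 33.7 against 44.8, 49.8 and 45.4 CPM (log2 -0.49, SE 0.103). Slc39a5, a zinc importer, was low at 1.70, 0.660 and 0.660 against 3.63, 10.2 and 7.51 CPM (log2 -2.83, SE 0.550). Fmo1, a flavin monooxygenase that oxidises drugs, was nearly the same in the 3 knockouts at 29.8, 30.9 and 30.03 CPM and stood at 65.9, 64.3 and 42.9 CPM in controls (log2 -0.93, SE 0.181). That no knockout reached the level of any control in these 4 genes was required by the rule that chose them.

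Several of the larger differences were in genes at low levels whose controls spread widely. Ggt1, which breaks down extracellular glutathione, was at 2.83, 1.05 and 1.71 CPM in knockouts and 4.06, 12.3 and 34.3 CPM in controls (log2 -3.19, SE 0.798). Lrrc55, an accessory subunit of potassium channels, was at 1.08, 0.671 and 0.554 against 8.71, 13.3 and 1.47 CPM (log2 -3.35, SE 0.790). Gata4, a transcription factor gene of endoderm, was at 1.18, 0.990 and 0.978 against 2.03, 3.05 and 6.60 CPM (log2 -1.91, SE 0.456), and Aldh1a7, an aldehyde dehydrogenase, at 0.425, 0.550 and 0.153 against 1.01, 2.16 and 3.47 CPM. Control 3 was the highest library for Ggt1, Gata4 and Aldh1a7, and the lowest control for Lrrc55. The remaining lower genes were Myo3a, with 0.916, 0.297 and 0.636 against 3.89, 3.47 and 1.42 CPM, Eme2, a subunit of a DNA repair endonuclease, with 13.2, 11.9 and 12.8 against 21.1, 19.4 and 17.7 CPM, and the myosin gene Myo1d, with 39.9, 39.7 and 41.2 against 63.1, 53.2 and 58.5 CPM.

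**Figure D2:**
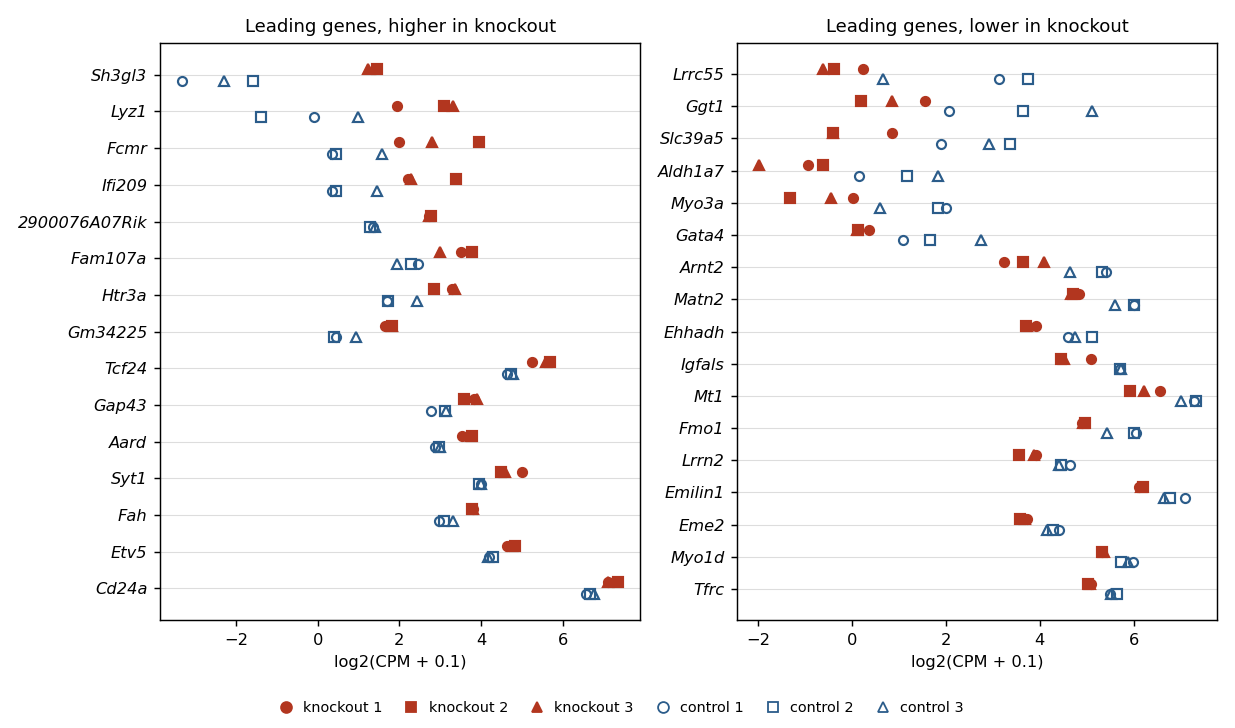
Levels of the 15 leading genes that were higher and the 17 that were lower in knockout females, as log2(CPM + 0.1) on the x axis, 1 gene per row. Filled red symbols are knockouts 1 to 3 and open blue symbols controls 1 to 3; the rule that chose these genes required groups that do not overlap, so the separation itself is no finding.

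Among the higher genes away from chromosome 7 were Syt1, Gap43 and Htr3a. Syt1, the calcium sensor of vesicle fusion at synapses, was at 32.1, 22.3 and 23.9 CPM in knockouts and 15.8, 15.4 and 15.8 CPM in controls (log2 0.73, SE 0.163). Gap43, a protein of growing axons, was at 14.1, 11.9 and 14.9 against 6.76, 8.55 and 8.75 CPM (log2 0.76, SE 0.166). Htr3a, which encodes a subunit of the ion channel opened by serotonin, was at 9.72, 7.05 and 10.2 against 3.13, 3.20 and 5.27 CPM (log2 1.21, SE 0.276). The 3 genes had negative log2 differences in males, at -0.43 (SE 0.208), -0.28 (SE 0.196) and -1.18 (SE 0.337). In females of the Ins1-Cre line they were -0.95 (SE 0.711), -0.90 (SE 0.578) and -2.08 (SE 1.32). There control 1 exceeded every other library for all 3 genes, so these values rested on it. Htr3a was at 21.2 CPM in that control, 2.17 CPM in control 2 and 2.96 and 2.59 CPM in knockouts. The female minus male difference had unadjusted p-values of 0.00238, 0.00336 and 0.000425 in the edgeR interaction fit and adjusted p-values of 0.303, 0.305 and 0.303. Because the 3 genes were chosen by their difference in females, which this fit uses again, these p-values are not independent evidence.

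Tcf24, a helix-loop-helix transcription factor gene, was at 37.8, 51.1 and 47.7 CPM in knockouts and 24.5, 26.6 and 27.3 CPM in controls (log2 0.80, SE 0.144), and the ETS factor gene Etv5 at 24.7, 28.5 and 26.8 against 18.3, 19.4 and 17.8 CPM (log2 0.53, SE 0.114). Cd24a, a glycoprotein of the cell surface, was at 136, 164 and 137 against 95.0, 101 and 108 CPM (log2 0.52, SE 0.120). Tcf24 and Etv5 had the same sign in males, at 0.45 and 0.32, and Cd24a did not, at -0.13. Aard was at 11.5, 13.5 and 13.3 against 7.27, 7.73 and 7.81 CPM, and Fam107a, an actin-binding stress-response gene, at 11.2, 13.7 and 7.92 against 5.41, 4.76 and 3.74 CPM. Gm34225, a long noncoding RNA gene on chromosome 7 outside the window around Cpeb1, was at 3.02, 3.42 and 3.43 against 1.27, 1.21 and 1.82 CPM, with a log2 difference of 1.19 that was 2.03 in males and -0.87 in females of the Ins1-Cre line.

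Of 16 genes listed for the prolactin response, 12 had a negative log2 difference. In the beta cell, prolactin and placental lactogen act through the receptor PRLR and the transcription factors STAT5A and STAT5B, and they switch on serotonin synthesis and growth genes, as in pregnancy. All 16 listed genes were tested. At an unadjusted p under 0.05, 0 were higher and 4 lower (25.0%, against 5.46% of all genes), and the list median was -0.62. The list was drawn up with earlier results of these libraries known, so its direction is not independent evidence, and Matn2 and Ehhadh, described above, belong to it.

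The receptor gene Prlr was at 377, 336 and 277 CPM in knockouts and 692, 438 and 306 CPM in controls, with overlapping groups (log2 -0.54, SE 0.300). The enzymes of serotonin synthesis were lower, Tph2 at 4.38, 3.50 and 3.42 against 5.66, 9.90 and 5.49 CPM (log2 -0.90, SE 0.284, unadjusted p = 0.0169) and Tph1 at 1.82, 0.286 and 0.141 against 5.07, 8.37 and 1.196 CPM (log2 -2.70, SE 1.11, unadjusted p = 0.0475). For Tph1 the groups overlapped, since knockout 1 exceeded control 3. Cish, a STAT5 target that dampens the signal, spread from 12.1 to 49.2 CPM in knockouts and from 23.1 to 61.5 CPM in controls (log2 -0.69, SE 0.584). Igf1r, the receptor of insulin-like growth factor 1, was at 57.5, 43.6 and 45.5 against 155, 69.4 and 50.9 CPM.

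Stat5b was level at 66.1, 69.9 and 74.3 CPM against 71.9, 71.3 and 65.1 CPM (log2 0.01), and Socs3, an inhibitor of cytokine signalling, was at 15.2, 28.2 and 19.6 against 17.8, 14.0 and 19.9 CPM (log2 0.28). Control 1 or 2 was the highest library for every gene of the list with a negative log2 difference except Socs2, another inhibitor of the signal, where knockout 1 was the highest (47.4 CPM, against 45.2 CPM in control 2). The number of members at an unadjusted p under 0.05 was 2 to 8 when 1 library was left out, 3 without control 1 or control 2, 8 without control 3, and 2 without knockout 3. The list median without control 1 was -0.25 and without control 2 was -0.34. In males 1 of 16 was higher and 0 lower at an unadjusted p under 0.05 with a median of 0.01, and in females of the Ins1-Cre line 0 were, with a median of 0.06. For the female minus male difference 3 of 16 were negative at an unadjusted p under 0.05 (18.8%, against 10.6% of all genes), and 0 passed the edgeR interaction test after adjustment.

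**Figure D3:**
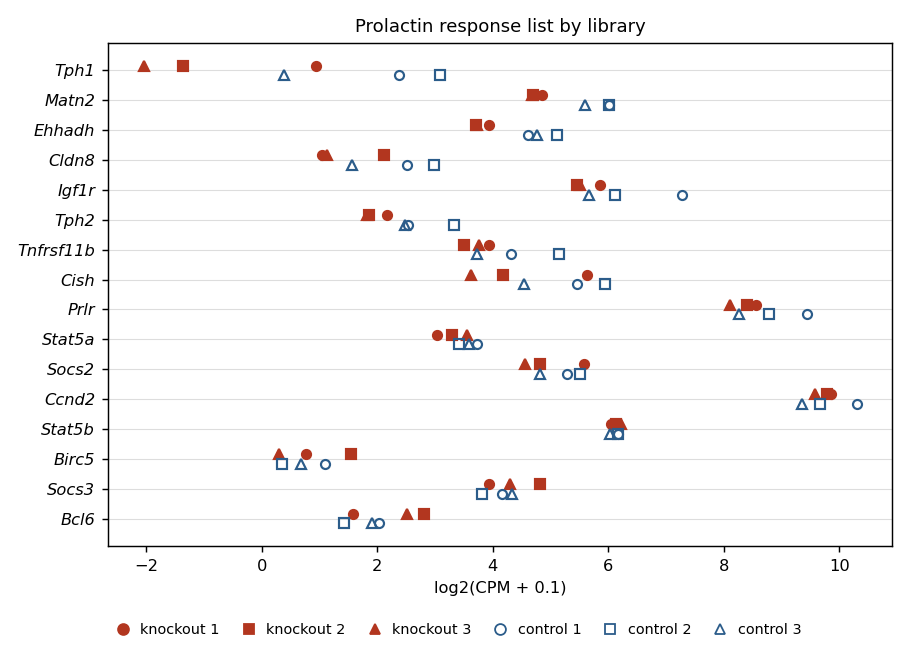
The 16 genes of the prolactin response list, ordered by log2 fold change, with log2(CPM + 0.1) on the x axis; filled red symbols are knockouts 1 to 3 and open blue symbols controls 1 to 3. Matn2, Ehhadh and Tph2 have groups that do not overlap, as do 13.4% of all genes tested, and the rule for leading genes required this of Matn2 and Ehhadh. Control 1 or control 2 is the highest library in the 12 upper rows other than Socs2.

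The hormone genes of the islet did not separate the groups. Ins1 was at 72260, 70067 and 89254 CPM in knockouts and 69129, 74253 and 85805 CPM in controls (log2 0.01, SE 0.141), and Ins2 at 166500, 155900 and 203860 against 118690, 164690 and 210300 CPM (log2 0.09, SE 0.222). With these standard errors, small changes of the insulin genes were not detectable with 3 libraries a group. Gcg, the glucagon gene, was at 59216, 72949 and 62956 against 50273, 68483 and 52549 CPM (log2 0.19, SE 0.156). Sst, the somatostatin gene of delta cells, was at 4424, 4669 and 4601 against 5189, 4376 and 4200 CPM (log2 -0.01, SE 0.119). Ppy, the gene of pancreatic polypeptide, was at 1068 CPM in control 1 and between 5232 and 8300 CPM in the other 5 libraries.

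Of 19 islet transcription factor genes, 19 were tested, with 0 higher and 2 lower at an unadjusted p under 0.05 and a median log2 difference of -0.24. Mlxipl, which encodes the glucose-responsive factor ChREBP, was at 49.6, 37.6 and 50.1 CPM in knockouts and 104, 55.2 and 66.9 CPM in controls (log2 -0.72, SE 0.256). Pdx1, a master regulator of beta cells, was at 113, 85.6 and 104 against 125, 116 and 115 CPM (log2 -0.23, SE 0.131), with the groups just apart. Mafa at 190, 141 and 181 against 213, 122 and 166 CPM and Nkx6-1 at 224, 193 and 200 against 254, 208 and 178 CPM overlapped between groups. Control 1 was the highest library for Mlxipl, Pdx1, Mafa and Nkx6-1, and without it the list median was -0.03. Without control 3 it was -0.38, with 7 of 19 lower at an unadjusted p under 0.05.

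Glucose sensing and exocytosis genes numbered 18, all tested, with 0 higher and 2 lower at an unadjusted p under 0.05 and a median of -0.17. Without control 3, 8 of 18 were lower at that level, and without knockout 1 or knockout 2 it was 0. Abcc8, the sulfonylurea receptor subunit of the ATP-sensitive potassium channel, was at 663, 593 and 733 CPM in knockouts and 972, 908 and 794 CPM in controls (log2 -0.43, SE 0.135, unadjusted p = 0.017), while Kcnj11, the pore of the same channel, was at 180, 161 and 172 against 190, 183 and 172 CPM (log2 -0.09, SE 0.101). Unc13a, which primes granules for fusion, was at 27.1, 20.9 and 30.6 against 51.3, 36.7 and 33.8 CPM (log2 -0.63, SE 0.215). The glucose transporter gene Slc2a2 was at 696, 621 and 619 against 775, 640 and 580 CPM (log2 -0.04, SE 0.142).

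Among 12 tested genes of islet receptors and cAMP signalling 1 was lower at an unadjusted p under 0.05. It was Glp1r, the receptor of the incretin GLP-1, at 723.4, 454 and 538 CPM in knockouts and 1297, 920 and 723.0 CPM in controls (log2 -0.78, SE 0.265, unadjusted p = 0.0237), where knockout 1 and control 3 were level. Without control 1 the log2 difference was -0.53. The related receptor Gipr was at 28.0, 22.8 and 25.2 against 25.9, 23.6 and 21.4 CPM. Of 14 tested genes of prohormone processing and granules 1 was lower, Ptprn2, a granule membrane protein gene, at 594, 541 and 573 against 791, 864 and 603 CPM (log2 -0.40, SE 0.156), and the list median was -0.04. Without control 3, 2 receptor and cAMP genes and 4 granule genes were lower at that level. The proprotein convertase gene Pcsk1 was at 585, 536 and 471 against 722, 732 and 439 CPM. Aldh1a3, a gene raised in failing beta cells, was at 2.94, 2.97 and 3.35 against 1.94, 2.75 and 3.19 CPM (log2 0.22, SE 0.249).

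Markers of cells other than endocrine cells differed between libraries by large factors, and their part in the results above was not tested. In bulk RNA, fewer cells of a type and less RNA per cell cannot be told apart. The 14 listed beta cell markers on autosomes summed to 250920 to 320210 CPM in knockouts and 211710 to 322340 CPM in controls, so the labelled tissue carried its defining genes in all 6 libraries. The 34 acinar markers, digestive enzymes and their regulators, summed to 12362, 4205 and 1696 CPM in knockouts and 17029, 70138 and 3378 CPM in controls. Of 32 acinar genes tested all 32 had a negative log2 difference (median -2.32), yet 0 had groups that did not overlap, against 13.4% of all genes. An unadjusted p under 0.05 was reached by 2 of them (Reg1 and Rbpjl), which is 6.25%, near the 5.46% of all genes. Without control 2 the median was -0.70, and without control 3 it was -2.87 with 25 of 33 lower at an unadjusted p under 0.05. In males 31 of 33 acinar genes also had a negative log2 difference (median -3.295), with 26 lower at that level (78.8%, against 7.41% of all genes). In females of the Ins1-Cre line 31 of 33 were positive (median 0.79), with 10 higher at that level (30.3%, against 3.45% of all genes). Control 3, where Ggt1, Gata4 and Aldh1a7 were highest, had the lowest acinar sum of the controls. Control 2, with the highest acinar sum, was the next highest library for each of these genes. What acinar cells contribute to their levels was not tested.

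B lymphocyte genes had higher values in knockout females, with sums that overlapped between the groups. The 14 markers summed to 2060, 4528 and 527 CPM in knockouts 1 to 3 and to 51.4, 46.2 and 616 CPM in controls 1 to 3, with Ighm, the heavy chain of IgM, as the largest part. All 14 had a positive log2 difference (median 2.03), and 6 (42.9%, against 5.46% of all genes) had an unadjusted p under 0.05. Fcmr, the receptor of IgM, was at 3.88, 15.3 and 6.81 CPM against 1.18, 1.26 and 2.86 CPM (log2 2.26, SE 0.603), and Ighd, the heavy chain of IgD, at 4.73, 22.9 and 10.7 against 2.03, 0.682 and 4.51 CPM (log2 2.39, SE 0.820). Knockout 2 was the highest library for both.

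The B cell counts rested on single libraries. With 1 library left out, 1 to 12 of the 14 markers had an unadjusted p under 0.05, 1 without control 1 or knockout 2, 2 without control 2, and 12 without control 3, and the median was 1.29 without knockout 2. In males the same 14 genes all had a negative log2 difference (median -3.83), 13 of them at an unadjusted p under 0.05, and in females of the Ins1-Cre line all 14 were positive with 0 at that level. The female minus male difference was positive at an unadjusted p under 0.05 for 14 of 14 (against 10.6% of all genes in either direction), and 0 passed after adjustment. Ifi209, an interferon-inducible gene of immune cells, ran along at 4.50, 10.3 and 4.77 CPM in knockout females against 1.18, 1.26 and 2.65 CPM (log2 1.91, SE 0.475, and -1.46 in males).

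Among the other immune markers, single genes had small p-values. Of 11 T lymphocyte genes 1 had an unadjusted p under 0.05, Cd4, at 3.08, 13.1 and 3.46 CPM against 0.507, 0.583 and 3.07 CPM, and the list summed to 16.0 to 69.4 CPM in knockouts and 3.63 to 23.5 CPM in controls. The T lymphocyte median of 1.64 was 3.80 without control 3, with 9 of 11 at an unadjusted p under 0.05, and 0.38 without knockout 2, with 0 at that level, as without control 1 or control 2. Of 12 macrophage genes 1 did, Lyz2, at 71.7, 163 and 93.4 against 38.0, 42.2 and 77.2 CPM (log2 1.06, SE 0.390). The macrophage median was 0.21, against 0.06 without control 1 or knockout 2 and 0.44 without control 3, where 3 genes were at that level. Its neighbour and close copy Lyz1 was at 3.72, 8.36 and 9.86 against 0.845, 0.285 and 1.88 CPM (log2 2.84, SE 0.729), and reads of these 2 lysozyme genes can be assigned to either.

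Vascular and mesenchymal markers had positive log2 differences as well. All 18 endothelial markers had a positive log2 difference (median 0.47) and 1 had an unadjusted p under 0.05, Esm1, at 147, 137 and 157 CPM against 108, 78.2 and 111.9 CPM. All 16 stellate and mesenchymal markers were positive (median 0.45), with 1 at that level, Postn, a matrix protein gene, at 19.97, 35.9 and 25.8 against 13.5, 6.33 and 20.03 CPM. Control 2 was the lowest library for both sums, at 655 and 183 CPM, and without it 14 of 18 and 8 of 16 were positive, with medians of 0.20 and 0.05. Without control 3, 8 endothelial and 4 stellate markers had an unadjusted p under 0.05, with medians of 0.67 and 1.24, and without knockout 2 the stellate median was 0.11. In females of the Ins1-Cre line all 18 endothelial markers had a negative log2 difference.

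**Figure D4:**
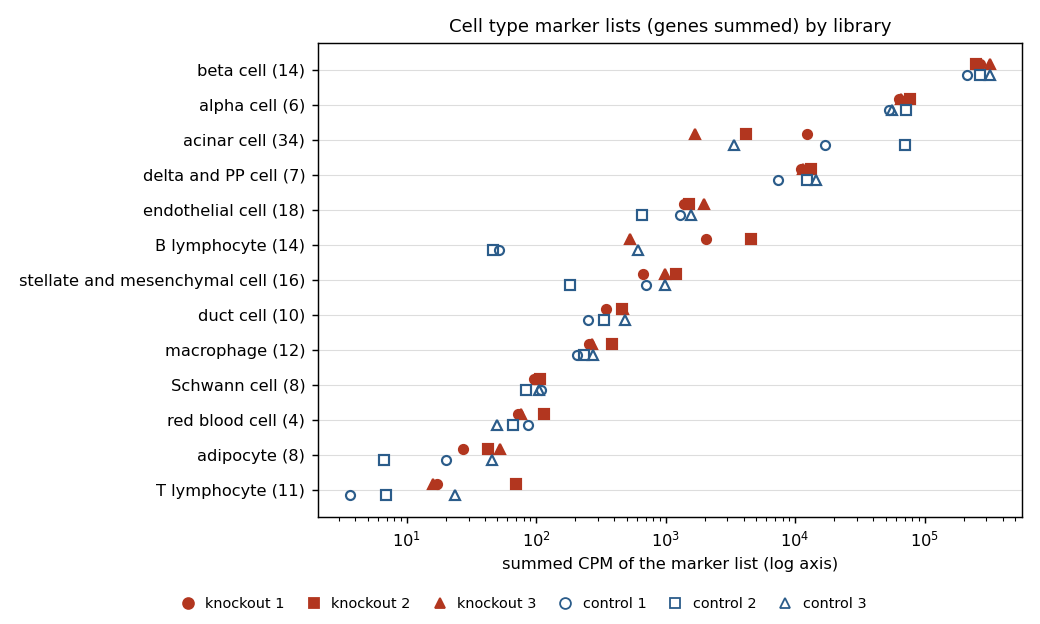
Summed CPM of each cell type marker list on a log axis, with the number of autosomal genes summed in brackets; filled red symbols are knockouts 1 to 3 and open blue symbols controls 1 to 3. B lymphocyte sums are 527 to 4528 in knockouts and 46.2 to 616 in controls, the acinar sum of control 2 is 70138, and no list separates the groups.

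Ribosomal protein and oxidative phosphorylation genes had small median differences that depended on controls 1 and 3. Of 75 ribosomal protein genes 72 had a positive log2 difference (median 0.25) and 1 an unadjusted p under 0.05, Rpl30, at 330, 285 and 347 CPM against 212, 233 and 294 CPM. The list summed to 17132 CPM in control 1 and to 27227 to 32978 CPM in the other 5 libraries, and without control 1 the median was 0.02 with 45 of 75 positive. Of 73 oxidative phosphorylation genes 67 were positive (median 0.15, 0 at an unadjusted p under 0.05), and without control 1 it was 23 of 73, with a median of -0.06. Without control 3, 17 ribosomal protein and 21 oxidative phosphorylation genes were higher at an unadjusted p under 0.05, with medians of 0.48 and 0.39. The lower share of ribosomal protein mRNA in control 1 stood beside its higher mitochondrial share, and the part of RNA quality in these values was not tested.

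The remaining groups held few small p-values. Of 26 interferon and antigen presentation genes 24 were positive (median 0.45) and 1 had an unadjusted p under 0.05, Ifit3, at 8.47, 13.8 and 10.7 CPM against 3.80, 3.97 and 9.21 CPM. Without control 1 it was 0 with a median of 0.24, without knockout 2 also 0 with a median of 0.23, and without control 3 it was 15 of 26 with a median of 0.70. All 16 genes normally kept off in beta cells were positive (median 0.39, 0 at that level), and without control 2, 9 of 16 were, with a median of 0.15. Without knockout 2 the median was 0.16, and without control 3 it was 1.28, with 9 of 16 at an unadjusted p under 0.05. Of 20 tested immediate early and stress genes 1 was higher at an unadjusted p under 0.05, Hmox1, the heme oxygenase induced by oxidative stress, at 10.7, 9.57 and 9.40 against 6.93, 8.13 and 7.49 CPM. The median of that list was 0.31, but -0.10 without control 2 and -0.06 without knockout 2. Of 6 tested dedifferentiation genes 1 was higher, Gast, the gastrin gene, at 0.567, 0.374 and 0.436 against 0.0845, 0.198 and 0.209 CPM. Unfolded protein response, cell cycle and circadian clock genes, 22, 25 and 17 in number, had 0 at an unadjusted p under 0.05. Without control 3 the first list had 2 higher and 4 lower at that level, the cell cycle list 1 higher and the clock list 3 lower.

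The leading genes of the females were set beside the males of the same line, which have their own controls and in which edgeR called 4 of 17753 genes (0.0225%). Of the 15 leading higher genes 6 had the same sign in males and 9 the opposite one, and of the 17 leading lower genes 10 had the same sign and 7 the opposite one. An edgeR interaction test over the 12 whole-body libraries asked whether the knockout difference itself was unequal in females and males. It called 0 of 17753 genes, with 1889 (10.6%) at an unadjusted p under 0.05, while limma-voom called 0 (1594 at an unadjusted p under 0.05) and DESeq2 called 229 positive and 223 negative genes. Of the leading genes 10 higher and 10 lower ones had an unadjusted p under 0.05, and the lowest adjusted p among them was 0.303. The leading genes were chosen by their difference in females, which the interaction test uses again. Their count is therefore raised by that choice and is not evidence that the sexes differ. Aldh1a7, Ggt1 and Gata4, lower in knockout females, stood at 3.39, 3.02 and 2.70 in males. Of the neighbours of Cpeb1, 2900076A07Rik at 1.49, Sh3gl3 at 1.96, Arnt2 at -1.10 and Fah at 0.37 had the same sign in males.

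**Figure D5:**
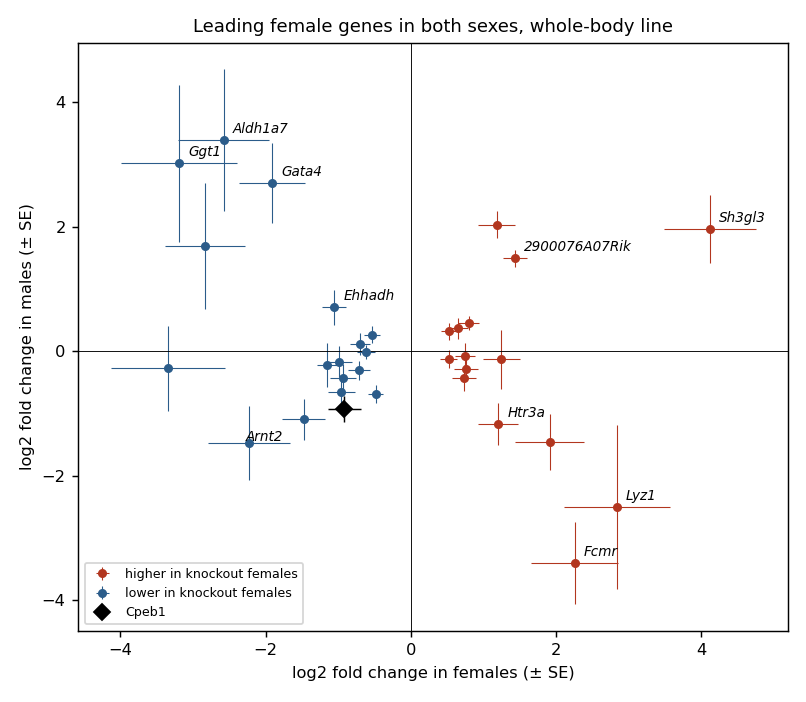
Log2 fold change of knockout against control in whole-body females (x axis) and whole-body males (y axis, 12-library fit) for the 32 leading female genes, with Cpeb1 as a black diamond; bars are ± 1 SE. Red points are higher and blue points lower in knockout females; Aldh1a7, Ggt1 and Gata4 lie in the upper left and Fcmr and Lyz1 in the lower right, while 2900076A07Rik, Sh3gl3 and Arnt2 have 1 sign in both sexes.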

How the data were processed

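Islets were isolated with collagenase and a Histopaque gradient and RNA was purified on silica columns, per the labels' protocols. Libraries were made by oligo(dT) selection, random priming, adapters with molecular identifiers and 13 PCR cycles. Per the submitters' processing notes, mm10, STAR 2.5.3a and RSEM 1.3.0 were used. The deposited values are RSEM expected counts per gene, held as whole numbers and not scaled by the authors for library size; which annotation and strand setting the counting used, and whether molecular identifiers were collapsed, is not given in the sources used here. Without a known strand setting, reads of overlapping or antisense genes cannot be told apart.

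The table listed 55416 genes, of which 52135 (94.1%) had a position in GENCODE M21 and 48081 were autosomal. Rn18s and Lars2 were removed, autosomal genes kept, low counts filtered with filterByExpr (17052 genes left), and the 6 libraries scaled by TMM (factors 0.924 to 1.09) and fitted with edgeR 4.0.16 in R 4.3.3 (quasi-likelihood, robust, no covariate). The biological coefficient of variation was 0.352. A gene counted as called when its Benjamini-Hochberg adjusted p was under 0.05. The scripts were tested on simulated data with less spread between libraries than these. That test therefore does not show how the fits behave at the spread seen here. An interaction fit used all 12 whole-body libraries, and the 4 female libraries of the Ins1-Cre line were fitted apart. DESeq2 1.42.0 and limma-voom (limma 3.58.1) were alternatives, with other scalings, filters, age, a replicate block and leaving out each library. DESeq2 gave no adjusted p for 126 genes. Counting floors are 3 counts per library and cover counting error only.

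Replicate pairs differed by more than counting noise (chi-square per degree of freedom 107 to 617). Same-numbered knockout and control mice shared neither age throughout nor deviations from their group means (correlations 0.142, -0.300 and 0.0219), so the numbers were not taken as pairs.

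The comparison, its members and the gene lists were chosen with earlier results of these data known. Named genes were Cpeb1; the 12 per direction with the smallest p and the 6 with the largest change at an unadjusted p under 0.01, both with a mean of at least 1 CPM and groups that do not overlap; a panel of 17 hormone, beta cell and CPEB genes; up to 4 members of each list with the smallest p under 0.05; and up to 6 neighbours of Cpeb1. Some genes that this rule names are not reported here. Cish, Cpeb1os1, Furin, Gipr, Homer2, Igf1r, Ighm, Parn, Pcsk1, Prlr, Socs2, Socs3, Stat5b, Sympk and Tent2 fall outside it and were chosen with their values known. Of the 8 listed Schwann cell, 10 duct, 4 tested red blood cell, 4 tested adipocyte, 6 alpha cell and 7 delta and PP cell markers on autosomes, 0 had an unadjusted p under 0.05. Without control 3, 3 Schwann cell, 1 duct, 2 adipocyte and 2 alpha cell markers did, and 1 red blood cell marker did without control 1 or knockout 1.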

Additional observations from a re-analysis of the deposited data

How the results depend on the processing

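Whether any gene was called depended on the tool and on how the spread was estimated. DESeq2 called 19 higher and 28 lower genes (1455 at an unadjusted p under 0.05), all 47 with groups that do not overlap, and did not call Cpeb1 (adjusted p = 0.0711). The fit over 12 libraries called 1 higher gene, 2900076A07Rik, and had 1959 genes at an unadjusted p under 0.05. Other scalings, filters, age as a covariate and limma-voom called 0, with 820 to 1114 at an unadjusted p under 0.05. With 1 library left out edgeR called 0, with 310 to 3585 such genes, the fewest without knockout 2 and the most without control 3; a fit with the replicate number as a block called 0, with 829. For the interaction DESeq2 called 229 positive and 223 negative genes, and leaving out 1 library gave 0 to 3 positive and 0 to 1 negative, all 4 without control 3 (1291 to 3574 at an unadjusted p under 0.05). With Rn18s and Lars2 kept, the scaled Cpeb1 mean was 28.5 CPM in knockouts and 54.2 CPM in controls. Neighbours at an unadjusted p under 0.05 numbered 11 to 23 with 1 library left out, and 12 of 56 within 2 Mb. Of the 73 named genes, 10 had another sign in at least 1 alternative. With 1 library left out, the log2 differences ranged from -0.49 to 0.10 for Cpeb2, -0.70 to 0.15 for Cpeb4, -0.0081 to 0.21 for Iapp, -0.10 to 0.11 for Ins1, -0.10 to 0.31 for Ins2, -0.15 to 0.24 for Mafa, -0.17 to 0.084 for Nkx6-1, -0.35 to 0.63 for Ppy, -0.13 to 0.074 for Slc2a2 and -0.066 to 0.082 for Sst. With age as a covariate Ins1 was at -0.027 and Sst at 0.0057. Sst was at 0.0017 with limma-voom, 0.010 without a filter and 0.036 with upper-quartile scaling, where Slc2a2 was at 0.00051. Beyond the construction of each alternative, the cause was not tested. Counts and medians of the lists with 1 library left out were added after seeing the data. The 12157634 usable counts of control 1 limit low genes there.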

Other observations

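Outside the autosomes, 647 further genes were tested when the whole table was fitted, 588 of them on the X chromosome, 15 mitochondrial and 39 without a position. Of these, 47 had an unadjusted p under 0.05 and 0 were called by edgeR after adjustment.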
